A study of Mus musculus with 6 samples.

Results

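Purkinje cells are the large inhibitory neurons of the cerebellar cortex, and 7 genes that mark them (Pcp2, Calb1, Car8, Itpr1, Ppp1r17, Slc1a6 and Gng13) were followed in locus coeruleus tissue of 5xFAD and wild-type mice. The genes were taken by name as a list of Purkinje cell markers, with no threshold on the measured values. All 7 were found among the 56923 genes of the table, and all 7 were among the 16411 genes that passed the filter on low values (3 or more libraries at a normalized count of 10 or higher). The locus coeruleus, the noradrenaline nucleus of the pons, was taken with a biopsy punch from slices, per the series' design text, and its poly-A RNA was sequenced in bulk. The 5xFAD group had 3 libraries, numbered 64, 65 and 79, and the WT group had 3, numbered 62, 63 and 66. 5xFAD mice carry human transgenes, APP among them, with familial Alzheimer's disease mutations, expressed from the neuronal Thy1 promoter, and WT mice carry no transgene. The labels give no age, sex, treatment or batch and do not tell whether the numbers stand for different animals, so p-values measure only how these samples spread, some of which may be technical. The series asks how tau phosphorylation in this nucleus relates to early sleep loss in an amyloid model, and the comparison here asks whether the Purkinje transcripts read in the punches differed between the genotypes.

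Purkinje cells receive glutamate from parallel and climbing fibres and provide the sole output of the cerebellar cortex. At the parallel fibre synapse, the receptor mGluR1 acts through Gq and phospholipase C to make IP3, which opens the IP3 receptor Itpr1 and releases calcium from the endoplasmic reticulum. This calcium signal, together with protein kinase C and cGMP-dependent kinase, drives long-term depression of the synapse. Purkinje cells lie in the cerebellum, above the fourth ventricle, whereas the locus coeruleus lies in its floor and wall beside the superior cerebellar peduncle. Several of the 7 genes are not restricted to Purkinje cells: Calb1 and Itpr1 are used by many neurons, Pcp2 is also known from retinal bipolar cells and Gng13 from taste cells and retina.

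The promoters of 3 of the 7 genes were available and are shown as background. Each window holds 300 bases, 250 before and 50 after an annotated start, and is read in the direction of transcription (RefSeq, GRCm38.p6, which is not the mm39 build of the authors). Pcp2 lay at chr8:3625498-3625797 on the minus strand, Slc1a6 at chr10:78780246-78780545 on the plus strand and Gng13 at chr17:25716922-25717221 on the plus strand. Capitals mark AGGTCA, the core letters read by nuclear receptors such as ROR-alpha, and the GC box letters GGGCGG, each searched on both strands, so TGACCT and CCGCCC also count.
Pcp2: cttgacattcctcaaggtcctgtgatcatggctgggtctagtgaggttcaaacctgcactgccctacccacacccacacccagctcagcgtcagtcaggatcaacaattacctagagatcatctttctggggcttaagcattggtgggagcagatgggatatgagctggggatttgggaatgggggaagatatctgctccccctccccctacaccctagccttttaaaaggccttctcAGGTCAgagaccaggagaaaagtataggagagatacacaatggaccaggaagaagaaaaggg
Slc1a6: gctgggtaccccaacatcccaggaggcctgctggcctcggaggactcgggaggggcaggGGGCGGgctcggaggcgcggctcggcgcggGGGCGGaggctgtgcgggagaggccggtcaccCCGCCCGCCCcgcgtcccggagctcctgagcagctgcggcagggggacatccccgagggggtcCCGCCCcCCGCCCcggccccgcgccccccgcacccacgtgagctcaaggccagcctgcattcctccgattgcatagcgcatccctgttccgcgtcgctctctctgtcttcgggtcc
Gng13: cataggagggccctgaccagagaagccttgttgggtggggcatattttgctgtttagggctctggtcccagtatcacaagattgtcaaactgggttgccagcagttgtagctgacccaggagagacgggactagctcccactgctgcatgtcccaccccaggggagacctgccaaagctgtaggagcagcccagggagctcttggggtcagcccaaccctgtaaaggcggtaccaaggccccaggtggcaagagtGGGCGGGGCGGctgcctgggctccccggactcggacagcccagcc
The Pcp2 window held AGGTCA once, beginning 12 bases before the start, and no GC box. The Slc1a6 window held 6 GC boxes and the Gng13 window shown held 2 that share a base, and neither held AGGTCA. A further annotated window of Gng13 held 3 GC boxes and no AGGTCA. Pcp2 has 4 annotated windows: the same site lies in the second, none in the third, and another AGGTCA lies 26 bases before the start in the fourth. Over all 32851 promoter windows, AGGTCA was present in 16.3% and GGGCGG in 35.7%. The cAMP response letters TGACGTCA were in none of the 3 windows and in 1.79% of all. These letters describe the windows, and binding was not measured.

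Depth ran from 15158712 to 20079349 reads assigned to genes per library. Values below are normalized counts, the authors' gene counts divided by a size factor per library. Genotype was checked on Thy1, whose regulatory sequence drives the transgenes and whose reads from either source cannot be told apart here. It read 21875, 16885 and 22211 in 5xFAD 64, 65 and 79, against 8755, 7976 and 9090 in WT 62, 63 and 66. Thy1 was also the only 1 of 16411 genes past an adjusted p of 0.05 in the limma test (0.00609% of the genes tested, adjusted p = 0.0456), a call that was kept without 5xFAD 65 and lost without any other library. Noradrenergic markers were read in every library, with Dbh, which makes noradrenaline, at 1281 to 2895. The choroid plexus transcript Ttr stood apart in WT 66, at 1107 against 10.2 to 61.2 in the other libraries.

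None of the 7 Purkinje cell genes differed between the genotypes beyond the spread of the libraries. Their mean was 1.24 to 1.73 times as high in 5xFAD as in WT, whereas libraries of the same genotype differed by as much as 11.5-fold. All 7 had a higher mean in 5xFAD, against 8232 of 16411 tested genes, and since the 7 varied together these are not separate results. Of the 7 genes, 0 passed (limma adjusted p = 0.9995 for each) and 0 had an unadjusted p under 0.05, against 2.32% of all tested genes. In every one the genotypes overlapped, against 7.42% of tested genes in which they did not. Fold changes and the counts of genes with a higher or lower mean are on the log2(normalized count + 1) scale, 5xFAD over WT, and so differ from the ratio of mean counts. In bulk tissue, fewer cells of a type and less RNA per cell cannot be told apart.

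Itpr1 (ENSMUSG00000030102.12, chromosome 6), the calcium release channel opened by IP3, had the highest counts of the list. It read 7072, 14879 and 4263 in 5xFAD 64, 65 and 79, against 2556, 11229 and 3133 in WT 62, 63 and 66. Libraries 65 and 63 were high, each in its own genotype, and 62 and 66 were low. The mean was 8738 ± 5501 in 5xFAD and 5639.6 ± 4849 in WT (SD, n = 3 each), and the limma log2 fold change was 0.77 with a standard error of 0.82 (95% interval from −1.46 to 3.00).

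Car8 (ENSMUSG00000041261.10, chromosome 4) encodes a carbonic anhydrase relative without enzyme activity that binds the IP3 receptor and lowers its affinity for IP3. It read 2428, 5832 and 1305 in 5xFAD 64, 65 and 79, against 457, 4380.2 and 997 in WT 62, 63 and 66. WT 63 lay above both 5xFAD 64 and 79, and the other WT libraries lay below all 5xFAD libraries. The mean was 3188 ± 2357 in 5xFAD and 1945 ± 2126 in WT (SD, n = 3 each), and the limma log2 fold change was 1.07 with a standard error of 1.11 (95% interval from −1.93 to 4.07).

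Calb1 (ENSMUSG00000028222.3, chromosome 4), calbindin, buffers the calcium that enters and is released. Its counts were 1985, 3910.05 and 1184 in 5xFAD 64, 65 and 79, against 775, 3154 and 719 in WT 62, 63 and 66. The order was again 65, 63, 64 and 79 from the top, with both remaining WT libraries at the foot. Means of 2359.7 ± 1401 in 5xFAD and 1549.5 ± 1390.2 in WT (SD, n = 3 each) stood beside a limma log2 fold change that was 0.79 with a standard error of 0.83 (95% interval from −1.45 to 3.04).

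Pcp2 (ENSMUSG00000004630.19, chromosome 8), whose promoter is shown above, encodes a modulator of inhibitory G proteins and is widely used to drive transgenes in Purkinje cells. It read 513, 875 and 298 in 5xFAD 64, 65 and 79, against 179, 683 and 291 in WT 62, 63 and 66. 5xFAD 79 and WT 66 were nearly level in this gene. The mean was 562 ± 291 in 5xFAD and 384 ± 265 in WT (SD, n = 3 each), and the log2 fold change was 0.63 (SE 0.68, 95% interval −1.16 to 2.42).

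Gng13 (ENSMUSG00000025739.14, chromosome 17), a G protein gamma subunit, had the lowest counts, with 136, 173 and 69.0 in 5xFAD 64, 65 and 79, against 68.7, 174 and 62.3 in WT 62, 63 and 66. It was the only one of the 7 in which WT 63 was the highest library; 5xFAD 65 came next and was nearly level. 5xFAD 79 and WT 62 did not separate. The log2 fold change was 0.37 (SE 0.50, 95% interval −0.85 to 1.59), from means of 126 ± 52.6 in 5xFAD and 102 ± 62.6 in WT (SD, n = 3 each).

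Ppp1r17 (ENSMUSG00000002930.7, chromosome 6) encodes G-substrate, a target of cGMP-dependent kinase that inhibits protein phosphatases once phosphorylated. It read 298, 692 and 184 in 5xFAD 64, 65 and 79, against 46.4, 535 and 96.0 in WT 62, 63 and 66. WT 62 and 66 lay below all 5xFAD libraries, and WT 63 lay above 5xFAD 64 and 79. Ppp1r17 had the widest range of the 7, 14.9-fold from the lowest to the highest library. The mean was 391 ± 266 in 5xFAD and 226 ± 269 in WT (SD, n = 3 each), and the limma log2 fold change was 1.32 with a standard error of 1.13 (95% interval from −1.70 to 4.34).

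Slc1a6 (ENSMUSG00000005357.10, chromosome 10), the glutamate transporter EAAT4 that clears glutamate at Purkinje cell spines, had the narrowest range, 2.43-fold. It read 225, 337 and 187 in 5xFAD 64, 65 and 79, against 139, 298 and 139 in WT 62, 63 and 66. WT 62 and 66 were level and lay below all 5xFAD libraries, while WT 63 lay between 5xFAD 64 and 65. The mean was 249.7 ± 77.9 in 5xFAD and 192 ± 92.0 in WT (SD, n = 3 each), and the limma log2 fold change was 0.43 with a standard error of 0.36 (95% interval from −0.45 to 1.31).

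Levels between genes were compared per kilobase of merged exons (GENCODE M21 lengths). Car8 was highest, at 827 ± 612 normalized counts per kilobase in 5xFAD and 505 ± 552 in WT, and Slc1a6 was lowest, at 116 ± 36.2 in 5xFAD and 89.3 ± 42.8 in WT (SD, n = 3 each). Calb1 came next to Car8 in both genotypes, followed by Itpr1 and Pcp2, although Itpr1 had the most counts, since its exons span 18319 bases. After Pcp2 came Ppp1r17 and then Gng13 in 5xFAD, and Gng13 and then Ppp1r17 in WT. The means of neighbours in this order differed by less than the larger SD of the pair. That SD is the spread between libraries, in which the genes varied together, so it does not tell whether 2 genes differ. Itpr1 was above Pcp2 in every library, whereas Itpr1 was above Calb1 only in 5xFAD 65 and WT 66.

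The difference between libraries of the same genotype was larger than the difference between genotype means for every gene. Within 5xFAD, library 65 was 4.47-fold above library 79 in Car8, 3.76-fold in Ppp1r17 and 1.80-fold in Slc1a6. Within WT, library 63 was 11.5-fold above the lowest library in Ppp1r17, 9.59-fold in Car8 and 2.15-fold in Slc1a6. The ratio of the means, 5xFAD over WT, was 1.73 in Ppp1r17, 1.64 in Car8 and 1.30 in Slc1a6. The residual SD within genotypes on the log2 scale was 1.44 for Ppp1r17 and 1.40 for Car8, against a median of 0.138 over all tested genes. From the highest, these ranked 48 and 53 among the 16411 genes, with Calb1 at 138, Itpr1 at 144, Pcp2 at 233, Gng13 at 413 and Slc1a6 at 1059.

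The 7 genes ranked the libraries almost alike. Libraries 63 and 65 were the 2 highest in 7 of 7, against 13.7% of tested genes, and libraries 62 and 66 were the 2 lowest in 7 of 7, against 10.1%. Libraries 63 and 65 were also the 2 highest in 8 of 10 noradrenergic genes and 9 of 14 granule cell genes. Libraries 62 and 66 were the 2 lowest in 0 of the 10 noradrenergic and 10 of the 14 granule cell genes. Pearson r between pairs of the 7 genes over the 6 libraries ran from 0.896 (Ppp1r17 with Gng13) to 0.997 (Calb1 with Slc1a6), with a median of 0.967 over 21 pairs. These values share libraries and scaling and are given as a description. The amplitude differed even so. On the log2 scale Ppp1r17 less the mean of the other 6 genes was −1.22 in 5xFAD 65 and −2.85 in WT 62. Itpr1 kept nearly the same distance from the others in every library, at 3.72 to 3.95 above their mean. The genotypes overlapped in this within-library difference for all 7 genes.

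The genotype difference depended on which libraries were included, though all 7 genes kept a higher mean in 5xFAD when any 1 library was left out. Without WT 63 the log2 fold change was 1.97 for Car8, 2.31 for Ppp1r17, 1.44 for Itpr1, 1.49 for Calb1, 1.16 for Pcp2, 0.84 for Gng13 and 0.80 for Slc1a6. Without WT 62 it was 0.34 for Car8, 0.56 for Ppp1r17 and 0.20 for Pcp2. Without 5xFAD 65 it was 0.29 for Itpr1, 0.34 for Calb1, 0.10 for Gng13 and 0.19 for Slc1a6. None passed over all genes in any of these fits (lowest limma adjusted p = 0.813, without WT 63), and the lowest unadjusted limma p was 0.00986, for Slc1a6 without WT 63. With edgeR and DESeq2 the log2 fold change was 0.77 and 0.79 for Ppp1r17 and 0.71 with each for Car8, more than 1.5 times below the limma values. In the authors' deposited table the log2 fold change, turned to 5xFAD over WT, was 0.31 for Gng13 to 0.79 for Ppp1r17, with an adjusted p of 0.99993 for each of the 7.

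Genes of cerebellar granule cells, the small excitatory neurons whose parallel fibres contact Purkinje cells, varied along with the list. Of 14 granule cell genes, 14 had a higher mean in 5xFAD, against 8232 of 16411 tested genes. In the limma test 0 of the 14 passed and 1 had an unadjusted p under 0.05, against 2.32% of tested genes. The median log2 fold change was 0.69 against 0.0005 over all tested genes. Most of the 14 varied together over the libraries, so these are not separate results. Gabra6, a GABA receptor subunit restricted to granule cells in the cerebellum, read 817, 1402 and 341 in 5xFAD 64, 65 and 79, against 48.3, 1079 and 70.4 in WT 62, 63 and 66. Its ranking of the libraries was that of Pcp2, Car8, Itpr1 and Ppp1r17. The summed normalized count of the granule list was 9573 to 18061 in 5xFAD and 6451 to 15139 in WT, and no member was at 0 in any library. The sum weighs most the genes of highest count, and single genes varied unequally. The range over the libraries was 1.45-fold for Cbln1, the highest by mean count, against 29.0-fold for Gabra6 and 30.6-fold for Fat2.

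Gabra6 and the 7 genes were high and low in the same libraries. Pearson r with Gabra6 ran from 0.897 for Gng13 to 0.975 for Ppp1r17 and Spearman rho from 0.886 to 1.00 (two-sided exact permutation p from 0.00278 to 0.0167 for r and 0.00278 to 0.0333 for rho). After adjustment over 21 relations, 6 of 7 passed by r (exact permutation adjusted p from 0.0146 to 0.05, the last for Gng13, which did not pass) and 4 of 7 by rho (adjusted p from 0.0146 to 0.1). Without WT 62 and WT 66, the libraries farthest from the Gabra6 median, r was 0.946 to 0.992 over the other 4. Each genotype has too few libraries for an r of its own. The 7 relations share the Gabra6 values, and the 7 genes vary together, so these are not 7 separate results. The gene lists were also chosen with earlier results of these data known, so the p-values are given as a description.

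The same test found no relation past the threshold with Dbh or Mbp. With Dbh, r was 0.531 to 0.748 and rho 0.6 to 0.771 (exact permutation adjusted p from 0.175 to 0.30 for r and 0.24 to 0.356 for rho), and r was 0.191 to 0.346 without 5xFAD 65 and WT 66. With Mbp, the myelin basic protein of oligodendrocytes, r was −0.668 to −0.483 and rho −0.543 to −0.486 (exact permutation adjusted p from 0.27 to 0.347 for r, and 0.356 for each rho), and r was −0.488 to −0.326 without 5xFAD 65 and 5xFAD 79. The summed count of 8 oligodendrocyte genes was 203425 in 5xFAD 65 and 210499 in WT 63, below the 255089.7 to 317168 of the other 4 libraries. All 8 had a higher mean in 5xFAD, against 8232 of 16411 tested genes, and 0 passed the limma test. Genes of a list are read in the same libraries, so these are not separate results. Of 10 noradrenergic genes, 9 had a higher and 1 a lower mean in 5xFAD, 0 passed and the median log2 fold change was 0.20, and their summed count ran from 12542 to 17415 in 5xFAD and from 9184 to 15900.2 in WT.

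With the mean log2 level of the granule list as a covariate, the sign of all 7 genes turned. The log2 fold change was then −0.46 for Car8, −0.39 for Gng13, −0.34 for Itpr1, −0.32 for Pcp2, −0.30 for Calb1, −0.26 for Ppp1r17 and −0.14 for Slc1a6. None passed (limma adjusted p = 0.99997 for each). Unadjusted limma p was 0.0223 for Car8 and 0.0284 for Pcp2, and ran from 0.129 for Gng13 to 0.443 for Calb1 in the others. The share of all tested genes at such p-values was not computed for this fit, so no result is read from them. With the noradrenergic list mean as a covariate all 7 stayed positive, from 0.09 for Gng13 to 0.90 for Ppp1r17. Granule cell genes thus moved with the 7 genes, and the part of granule cell content of the punch in the genotype difference was not tested.

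Within libraries, the granule cell gene Gabra6 did not stand in a fixed ratio to the Purkinje transcripts. Its range over the libraries was 29.0-fold, on a granule list whose ranges ran from 1.45-fold to 30.6-fold. Other granule cell genes were not compared in this way, so the differences below describe Gabra6 only. On the log2 scale Gabra6 less Car8 was −1.57, −2.06 and −1.93 in 5xFAD 64, 65 and 79, against −3.22, −2.02 and −3.80 in WT 62, 63 and 66. WT 63 resembled the 5xFAD libraries in this difference, and WT 62 and 66 were lower, so the genotypes overlapped. The same held for Gabra6 less Ppp1r17, at 1.45, 1.02 and 0.89 in 5xFAD 64, 65 and 79, against 0.06, 1.01 and −0.44 in WT 62, 63 and 66.

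Other genes high in Purkinje cells shared the library pattern in part. Of 24, 19 had a higher and 5 a lower mean in 5xFAD, 0 passed the limma test, and the median log2 fold change was 0.18. Libraries 63 and 65 were the 2 highest in 18 of the 24, and libraries 62 and 66 were the 2 lowest in 13 of the 24. The transcriptional corepressor Skor2 had an r of 0.851 with the mean profile of the 7 genes, with log2 fold change 0.49 (SE 0.38). Pcp4, a calmodulin-binding peptide, followed the profile (r = 0.929) over a range of only 1.15-fold. Aldoc, the aldolase that marks Purkinje stripes and is also made by astrocytes, ran opposite (r = −0.82, log2 fold change −0.06, SE 0.08). Pvalb, a calcium buffer of Purkinje cells and many other neurons, had an r of −0.461. An r of 0.9 or more was found for 16 of the 24 other Purkinje genes and for 11 of the 14 granule cell genes, so this likeness does not set Purkinje from granule cell genes. The share of all tested genes at such an r was not computed. Among the 4272 genes with an SD of at least 0.25 on the log2 scale it was 5.69%, a set that leaves out genes of narrow range such as Pcp4.

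The signalling genes upstream and downstream of Itpr1 varied less, with a median residual SD of 0.134 on the log2 scale against 1.04 for the 7 genes. Of 26 genes of the mGluR1, IP3, calcium and long-term depression pathway, with ranges over the libraries of 1.04-fold to 5.86-fold, 16 had a higher and 10 a lower mean in 5xFAD, 0 passed the limma test and 1 had an unadjusted p under 0.05, with a median log2 fold change of 0.07. That gene was Cbln1, which stands on the granule cell list too and is the gene counted there. Granule cells release it at the parallel fibre synapse, and it was measured with log2 fold change 0.27 (SE 0.10, limma unadjusted p = 0.0307). The log2 fold change was 0.13 (SE 0.07) for Homer1, a postsynaptic scaffold, and 0.08 (SE 0.07) for the G protein Gna11. The calcium pumps Atp2a2 and Atp2b2, the most abundant by count, had −0.02 (SE 0.05) and −0.06 (SE 0.05), with ranges of 1.05-fold and 1.102-fold over the libraries.

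Markers of other cerebellar cells were split. The Bergmann glia gene Gdf10 ranked the libraries as Car8 did over a 17.9-fold range (r = 0.957), whereas Hopx, also used by other astrocytes, did not (r = 0.252). Kit, a receptor of molecular layer interneurons, had an r of 0.978, and Eomes, a factor of unipolar brush cells, had 0.922 with log2 fold change 1.28 (SE 0.66). Others on the same lists did not follow the profile: r was −0.789 for the interneuron gene Gjd2 and −0.461 for Pvalb, 0.151 for the brush cell gene Calb2 and −0.655 for the Bergmann glia gene Fabp7. A higher mean in 5xFAD was found for 5 of 6 Bergmann glia, 4 of 6 interneuron, 4 of 5 brush cell and 3 of 6 mesencephalic trigeminal genes tested, the last a sensory nucleus beside the locus coeruleus, and 0 of each passed the limma test. Medians of r with the profile were 0.951 for the 24 other Purkinje genes, 0.934 for granule, 0.911 for Bergmann glia, 0.855 for interneuron, 0.667 for brush cell, 0.65 for noradrenergic, 0.087 for mesencephalic trigeminal and −0.689 for oligodendrocyte genes, over 6 libraries that all lists share.

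The genes most like the 7 were sought among 4272 genes with an SD of at least 0.25 on the log2 scale. Of these, 243 (5.69%) had an r of 0.9 or more with the profile and 42 had an r of −0.9 or less. Among the 10 highest were Hes3, Lingo3, Svep1, Cnpy1, Kank2, Wscd2, Cmya5, Icmt and Btg1, with r from 0.993 to 0.996 over 6 libraries. Hes3, a bHLH repressor, read 35.8, 76.95 and 16.996 in 5xFAD 64, 65 and 79, against 6.50, 55.1 and 11.2 in WT 62, 63 and 66. Cnpy1 read 654, 1333 and 299.9 in 5xFAD 64, 65 and 79, against 114, 954 and 167 in WT 62, 63 and 66. Both were high in 5xFAD 65 and WT 63 and lowest in WT 62, and the genotypes overlapped. The r of these genes was ranked over the same 6 libraries that chose them, so it is a description.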

How the data were processed

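Bulk RNA sequencing libraries of locus coeruleus punches, 3 5xFAD and 3 WT, were grouped by their titles. Per the labels' protocols, TRIzol RNA was selected for poly-A with oligo-dT beads, and TruSeq libraries were sequenced on a NovaSeq. Tools named in the submitters' processing notes are RSEM, STAR and DESeq2, with build mm39, while for annotation release and counting strand nothing is stated (not given in the sources used here). The deposited table is named as TPM, but its library columns hold a signal, per-gene reads that the authors scaled by a size factor. Column names end in a suffix that differs for each library and has no stated meaning. Whole multiples of a single step were found for 100% of values above 0 (tolerance 0.001), which gave the reads back, and the median-of-ratios size factors matched to 4.00e-15. The deposited log2 fold change, its standard error on the log2 scale, the test score and the p-value and adjusted p-value of the authors were read from the same table, per the file headers. The authors' ratio runs WT over 5xFAD when set against the library columns, so the sign printed is turned.

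Symbols were paired with 52073 of 56923 identifiers (91.5%). After adding 1 and taking log2, limma 3.58.1 (R 4.3.3) was fitted with robust moderation and a variance trend over the 16411 genes that reached a normalized count of 10 in 3 or more libraries, and p-values were Benjamini-Hochberg adjusted over all of them, with a threshold of 0.05. The design had assumed that the unit might be TPM and named this floor for other units. This scale understates the change of low genes. Relations across libraries used exact permutation of all pairings (scipy 1.17.1, Python 3.11.15). Alternatives were a pseudocount of 0.5, no filter, no trend or robust moderation, quantile normalization, edgeR 4.0.16 and DESeq2 1.42.0 on recovered reads, each library left out, and 2 list means as covariates. Counting strand is unknown, so reads of overlapping antisense genes cannot be told apart. The fit and the ranking by likeness were tested on simulated data.

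The 7 genes and the other gene lists were chosen with earlier results of these data known. The rule for names took the 7 genes, from each other list the 3 smallest p and 2 highest means, and the 10 genes of highest r. Some genes that this rule takes are not reported here. Thy1, Gabra6, Dbh, Pvalb, Gjd2, Fabp7 and the genes called under alternatives were named beside it, with Gjd2, Fabp7 and the genes called chosen after their values were seen.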

Additional observations from a re-analysis of the deposited data

How the results depend on the processing

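No paired analysis was possible because the genotypes share no library number. Over all 98 alternative fits of the 7 Purkinje cell genes, 91 kept the direction and none passed; the 7 that turned are those with the granule cell list mean as a covariate, at −0.465 for Car8, −0.395 for Gng13, −0.343 for Itpr1, −0.324 for Pcp2, −0.30 for Calb1, −0.262 for Ppp1r17 and −0.139 for Slc1a6, and the cause was not tested. Ppp1r17 moved to 0.774 with edgeR and 0.792 with DESeq2, against 1.32 in limma, and Car8 to 0.709 and 0.712, against 1.07; with these tools the other 5 genes, and with quantile normalization, no filter, no moderation or a pseudocount of 0.5 all 7, moved by less than 1.5 times. The call over all genes was less stable. Against 1 gene higher (Thy1) and 0 lower, there were 0 higher and 1 lower (Mme) with no filter, 0 higher without the variance trend and robust moderation, and 3 higher (Thy1, Gfap and Slc15a2) and 1 lower (Mme) with DESeq2. Leaving out 1 library gave 0 to 1 genes higher and 0 to 1 lower, with Ide lower without 5xFAD 65 and 2210418O10Rik higher in place of Thy1 without WT 66, and no call without 5xFAD 64, 5xFAD 79, WT 62 or WT 63. The causes were not tested. The 6 relations with Gabra6 past the threshold numbered 6 with a pseudocount of 0.5, and r with 4 libraries left was given without a test. With 3 libraries a group and a residual SD of 1.04 at the median of the 7 genes, against 0.138 over all tested genes, the spread between libraries limits what could be detected.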

Other observations

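Choroid plexus genes mark the tissue that floats in the fourth ventricle, and all those tested except Otx2 were highest in WT 66. Folr1 and Aqp1 of the same list did not pass the filter, which drops genes that reach 10 in fewer than 3 libraries. Ttr, the transthyretin transcript of choroid plexus epithelium, read 61.2, 12.5 and 41.0 in 5xFAD 64, 65 and 79, against 10.2, 12.9 and 1107 in WT 62, 63 and 66. WT 66 was high in Ttr and low in the Purkinje cell genes. The log2 fold change of Ttr was −0.76 (SE 2.16). Kl, which is made by choroid plexus and some neurons, was also highest in WT 66, with a log2 fold change of −0.32 (SE 0.31). Clic6 was highest in WT 66 too, with a log2 fold change of −0.41 (SE 0.32). Otx2, a factor also used by unipolar brush cells, was highest in 5xFAD 64. Its log2 fold change was 0.49 (SE 0.91), and its r with the Purkinje profile was 0.485. Of the 4 choroid plexus genes tested, 0 passed in limma and 0 had an unadjusted p under 0.05.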
